A study of Rattus norvegicus with 4 samples.

Results

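The genes described here are the collagens, the laminin chains and a set of matrix glycoproteins and proteoglycans, measured in rat neural stem/progenitor cells (NSPCs). Members were chosen by gene symbol alone, among the symbols in the count tables. They were the collagen chains (Col, number, a, number) and the laminin chains (Lama, Lamb or Lamc with a number). Any of 19 further symbols, such as Sparc, Fn1, Tnc and Vcan, were also taken. This gave 52 of the 16881 symbols in the count tables. The count tables had no entry for Col4a2, Col6a1, Col6a3, Lama2, Lama3, Lamb1, Nid1 or Hspg2, so every count and sum below leaves them out. Counts were found for 35 of the 52 in at least 1 library, and 34 reached 10 counts in a library and were tested among 10516 genes. The members that passed this filter include some that passed through 1 library only, so they do not stand for all 52.

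Wild-type NSPCs were grown on bare PUCL or on PUCL@CNT1, a platform from a series of electroconductive PUCL@CNT nanohybrid scaffolds. On each platform 1 library was made after 24 h in stemness-maintaining medium (maintenance medium), and 1 when culture had gone on for another 1.5 d in the medium B-27 Plus, made for neurons (differentiation medium). The study asked how the platforms bear on directed neuronal differentiation, with time in culture changing along with medium. Each of the 4 combinations was 1 library, nothing in the labels tells separate cultures apart, and 4 values of a gene are always given in the order PUCL and PUCL@CNT1 in maintenance medium, then PUCL and PUCL@CNT1 in differentiation medium. The libraries held 6502918, 6035848, 6580894 and 6855984 counts. Of 11 progenitor markers in the tables, 10 had counts. Vim stood at 28449 to 50754 counts and Sox2 at 3879 to 6301, while Msi1 was listed at 0.

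The extracellular matrix is built in layers. Network-forming type IV collagen, laminin trimers, nidogen and the proteoglycan agrin form the basement membrane that radial glia and vessels contact, and fibril-forming collagens such as types I, III and V build the stiffer interstitial matrix. Lecticans and tenascins fill the space between neural cells, and matricellular proteins such as SPARC bind collagen and tune how cells attach to it.

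Sequences upstream of the transcript start are shown for Sparc, Col18a1 and Col5a3, the members that passed a test. Col1a2 is also shown, an interstitial collagen chain whose platform ratio of single libraries differed between the media, which was not tested. The sequences come from RefSeq (rat build GRCr8), in which 26 of the 34 tested members had an entry. They are written 5′ to 3′ on the gene's strand. Capitals mark the CCAAT motif, the motif GGGCGG (a GC box core) and the TATA motif TATAAA, each on either strand. Sparc lies at chr10:40038817-40039066 (minus strand), Col18a1 at chr20:11473395-11473644 (plus strand) and Col5a3 at chr8:27625949-27626198 (minus strand), each covering the 250 bases before the start. Col1a2 lies at chr4:33518307-33518416 (plus strand) and covers bases 250 to 141 before the start, so the bases nearest its start are not shown.
Sparc: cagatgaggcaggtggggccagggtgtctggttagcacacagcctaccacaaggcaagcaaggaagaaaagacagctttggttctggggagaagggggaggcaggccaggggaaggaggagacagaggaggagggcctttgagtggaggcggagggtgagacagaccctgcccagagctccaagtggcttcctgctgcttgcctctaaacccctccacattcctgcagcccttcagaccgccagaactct
Col18a1: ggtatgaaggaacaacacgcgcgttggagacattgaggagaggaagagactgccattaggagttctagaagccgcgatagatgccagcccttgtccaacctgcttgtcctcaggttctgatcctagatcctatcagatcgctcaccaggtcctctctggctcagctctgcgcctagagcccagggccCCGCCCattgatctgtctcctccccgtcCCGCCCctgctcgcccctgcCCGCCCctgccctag
Col5a3: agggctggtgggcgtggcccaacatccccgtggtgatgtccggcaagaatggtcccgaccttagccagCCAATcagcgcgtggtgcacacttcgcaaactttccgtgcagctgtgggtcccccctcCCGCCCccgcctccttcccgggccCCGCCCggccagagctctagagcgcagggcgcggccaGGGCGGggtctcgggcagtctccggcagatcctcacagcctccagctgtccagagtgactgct
Col1a2: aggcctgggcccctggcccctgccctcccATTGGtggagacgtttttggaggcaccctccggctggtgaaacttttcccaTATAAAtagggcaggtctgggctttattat

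The GC box core, written GGGCGG on one strand and CCGCCC on the other, stood in the 250 bases of 14 of the 26 members (53.8%), against 60.7% of 8026 tested genes with an entry and 30.5% of all 33469 entries. Col18a1 and Col5a3 each held 3 copies, and Sparc held none of the 3 motifs. The CCAAT motif (ATTGG on the other strand) stood in 7 members (26.9%), Col5a3, Col4a1 and Col1a2 among them, against 35.7% of tested genes and 34% of all entries. The TATA motif (TATAAA, or TTTATA on the other strand) stood in Col1a2, Lama4, Ncan, Spp1 and Tnc (19.2%), against 6.37% of tested genes and 12.9% of all entries. These are matches of letters and not binding sites.

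After the switch to differentiation medium, 2 matrix genes rose in the quasi-likelihood test of edgeR, Sparc and Col18a1, and 0 fell. That is 2 of 34 tested members, against a background of 1.8% of all tested genes higher and 1.02% lower (2.81% in either direction). The fit held a term for platform and a term for medium over the 4 libraries, and the threshold was an adjusted p (Benjamini-Hochberg over all tested genes) of 0.05. It treats the change of medium as equal on both platforms and has 1 residual degree of freedom, so the spread behind each p comes mostly from other genes. At an unadjusted p under 0.05, 4 members passed (Sparc, Col18a1 and Col4a1 higher, Col1a2 lower), which is 11.8% of members against 12.1% of all tested genes. DESeq2 gave 1 member higher and 0 lower, and limma-voom 3 and 0. The median fitted log2 change of members was 0.10, against 0.0033 over all tested genes. Outside the fit, log2 ratios on the 2 platforms were averaged per gene with zeros set at 3 counts. Their median was 0.10, against 0.0054.

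Sparc, the collagen-binding matricellular glycoprotein, stood at 3173, 2481, 5860 and 4371 counts. Both differentiation libraries lay above both maintenance libraries, and within each medium PUCL lay above PUCL@CNT1. The ratio of differentiation to maintenance medium was 1.88 on PUCL (exact 95% interval 1.80 to 1.97) and 1.66 on PUCL@CNT1 (1.58 to 1.74); all such intervals are Clopper-Pearson intervals that cover counting error only, not scatter between cultures. The fitted log2 change was 0.82 (SE 0.187, edgeR adjusted p 0.0036). With the platform term left out the adjusted p was 0.0611. With 1 library also left out it was 0.462 without PUCL in maintenance medium, 0.876 without PUCL@CNT1 in maintenance medium, 0.319 without PUCL in differentiation medium and 0.0109 without PUCL@CNT1 in differentiation medium. Its platform effect was a fitted log2 of -0.37 (unadjusted p 0.0499, edgeR adjusted p 0.718).

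Col18a1 encodes the core protein of collagen XVIII, the basement membrane heparan sulfate proteoglycan from which endostatin is cut. It stood at 368, 481, 641 and 1476 counts, with PUCL@CNT1 in differentiation medium far above the other libraries. Differentiation medium was 1.78-fold higher on PUCL (interval 1.56 to 2.02) and 2.88-fold higher on PUCL@CNT1 (2.60 to 3.20), a fitted log2 of 1.18 (SE 0.312, edgeR adjusted p 0.0163). The adjusted p was 0.094 in DESeq2 and 0.0531 where only genes averaging at least 100 counts were tested. In fits without the platform term it was 0.64 without PUCL in maintenance medium, 0.336 without PUCL@CNT1 in maintenance medium and 0.000920 without PUCL in differentiation medium. Without PUCL@CNT1 in differentiation medium the fitted log2 was 0.57 and the adjusted p 0.617. PUCL@CNT1 exceeded PUCL 1.38-fold in maintenance medium and 2.24-fold in differentiation medium (fitted log2 0.82, unadjusted p 0.00979, adjusted p 0.402).

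**Figure D1:**
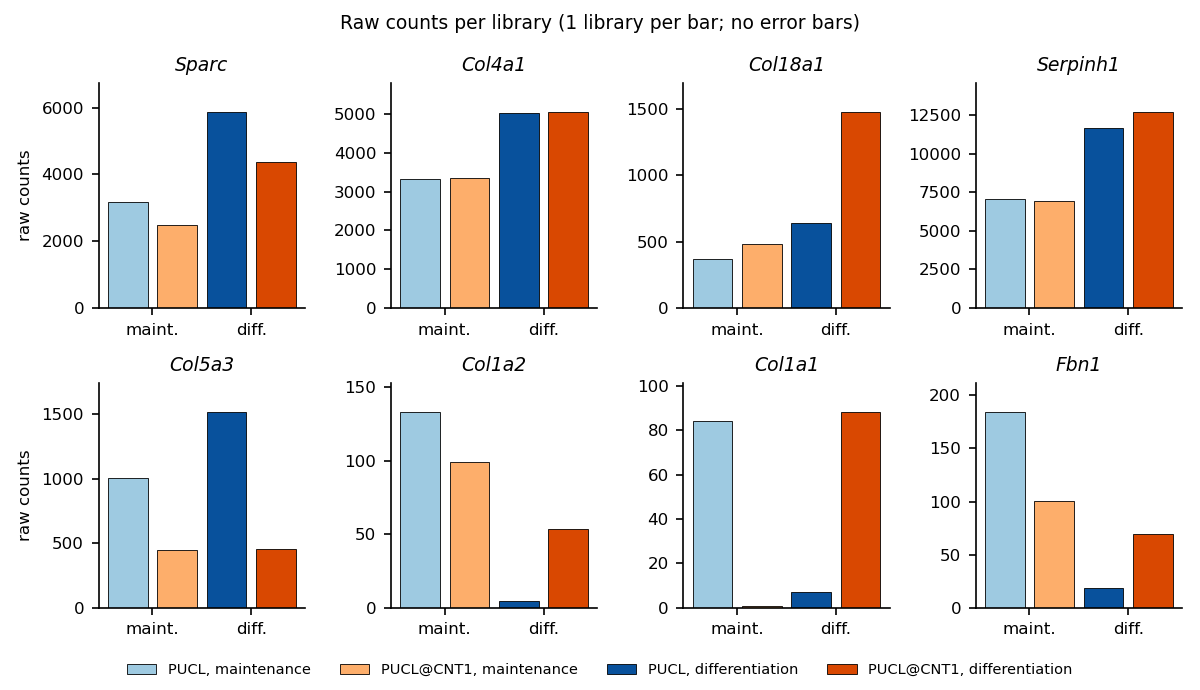
Raw counts (vertical axis, from 0) of 7 matrix genes and the collagen chaperone Serpinh1 in each of the 4 libraries, light bars for maintenance and dark bars for differentiation medium, blue for PUCL and orange for PUCL@CNT1. Sparc, Col4a1, Col18a1 and Serpinh1 are higher in both differentiation libraries, Col5a3 is lower in both PUCL@CNT1 libraries, and Col1a2, Col1a1 and Fbn1 are at 5, 7 and 19 counts on PUCL in differentiation medium.

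Col4a1, the main chain of the type IV collagen network, stood at 3322, 3361, 5045 and 5051 counts, nearly equal on both platforms within each medium. The ratio was 1.55 on PUCL (interval 1.48 to 1.62) and 1.41 on PUCL@CNT1 (1.35 to 1.48), and the platform ratios were 1.07 and 0.974. The medium effect missed the threshold in edgeR (fitted log2 0.56, SE 0.184, adjusted p 0.0806), passed in limma-voom (adjusted p 0.0223), and across all 11 other settings had adjusted p-values up to 0.94. Col4a1 and Sparc together held 44.7%, 49.2%, 54.8% and 53.2% of the counts of all members, which summed to 14522, 11884, 19907 and 17727. As a share of all counts the members made up 0.223%, 0.197%, 0.303% and 0.259%.

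Neural and glial markers moved with medium as well, and their part in these results was not tested. In edgeR 1.8% of all tested genes rose with medium and 1.02% fell. Of 9 progenitor markers tested 3 rose, Vim among them (edgeR adjusted p 0.0321). The list summed to 6386, 6722, 8244 and 10370 CPM, most of it from Vim (4314, 4795, 4814 and 7635 CPM). In differentiation medium 4 of the 9 were higher on PUCL@CNT1 than on PUCL and 5 were lower. The 7 neuron markers summed to 141, 123, 91.4 and 55.5 CPM, most of it from Map2 (83.7, 98.3, 63 and 35.8 CPM). For medium 0 of them passed the threshold (2 at an unadjusted p under 0.05 in edgeR). After the switch 1 of the 7 (Dcx) was higher on PUCL and 2 (Dcx and Tubb3) on PUCL@CNT1. Of 9 oligodendrocyte lineage markers tested, 4 rose (Olig1 among them, edgeR adjusted p 1.92e-05), and the summed level of the list was 936, 838, 1541 and 1547 CPM (counts scaled to library size by TMM). Of 6 astrocyte markers tested, S100b rose (683, 534, 3939 and 761 counts). Among 9 endothelial markers, Pecam1, Cdh5, Tek and Vwf were at 0 in all 4 libraries, Kdr stood at 95, 69, 0 and 71 counts, Flt1 at 0, 24, 18 and 125 and Emcn at 0, 0, 83 and 0, and the list summed to 15.6 to 29.5 CPM. All 8 microglia markers were listed at 0. In bulk RNA, fewer cells of a type and less RNA per cell cannot be told apart.

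Among the remaining fibril-forming collagens, the type V and XI chains, which nucleate and limit the width of fibrils, carried most counts. Col5a2 stood at 1000, 784, 1293 and 1189 counts, above maintenance in both differentiation libraries (ratios 1.32 and 1.43, edgeR adjusted p 0.556). Col11a1 stood at 326, 201, 397 and 211 counts, with PUCL above PUCL@CNT1 in both media (fitted platform log2 -0.79, unadjusted p 0.0844, edgeR adjusted p 0.826). Col5a1 was sparse, at 30, 0, 50 and 18 counts. Col5a2 and Col3a1 are neighbouring genes, and their patterns were unlike: Col3a1 had 3, 0, 2 and 65 counts.

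Col5a3, another chain of type V collagen, was lower on PUCL@CNT1, the only member past the threshold for platform. It stood at 1001, 448, 1512 and 458 counts. Both PUCL@CNT1 libraries lay below both PUCL libraries, and close to each other. PUCL was 2.12-fold above PUCL@CNT1 in maintenance medium (interval 1.89 to 2.37) and 3.40-fold above it in differentiation medium (3.06 to 3.78). The fitted log2 difference was -1.42 (SE 0.298, edgeR adjusted p 0.0056), 1 of 34 members against a background of 0.247% of genes lower and 0.209% higher (0.456% in either direction). The adjusted p was 0.126 where only genes averaging at least 100 counts were tested and 0 of 6204 genes passed for platform, and 0.383 with the medium term left out. With 1 library also left out it was 0.325 without PUCL and 0.294 without PUCL@CNT1 in maintenance medium, and 1.00 without PUCL and 0.422 without PUCL@CNT1 in differentiation medium. The fitted log2 in these 4 fits ran from -1.73 to -1.10, and was -1.46 with the medium term alone left out. DESeq2 gave it no adjusted p, and limma-voom gave 0.000768.

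Platform differences of the other members were described by the position of their libraries. In 12 of 34 members (35.3%) both PUCL@CNT1 libraries lay below both PUCL libraries, against 14.9% of all tested genes, and in 2 (5.88%), Nid2 and Spp1, they lay above, against 15.2%. The 12 were Agrn, Bcan, Bgn, Col11a1, Col5a1, Col5a3, Col9a2, Lama1, Lama5, Lamb2, Ncan and Tnr, of which 6 had a mean of 100 counts or more. Some of these differences were within counting error, as for Lama1 at 119, 109, 122 and 116 counts. The share of ribosomal RNA entries was also lower on PUCL@CNT1, at 11.3%, 9.03%, 13.4% and 8.46% of counts. Of the glial and progenitor markers, S100b (fitted platform log2 -1.36, edgeR adjusted p 0.00578) and Slc1a3 (2388, 1489, 4131 and 2075 counts, -0.82, 0.0457) were lower on PUCL@CNT1. They were 1 of 6 astrocyte and 1 of 9 progenitor markers tested, and 0 of 9 oligodendrocyte lineage markers passed. The median fitted platform log2 of these lists was -1.24, -0.26 and 0.064. Some of their markers ran higher, such as Vim (0.41, edgeR adjusted p 0.11), Mbp (0.46) and Gja1 (0.12). The part of these markers in the platform differences, including that of Col5a3, was not tested. The counts of 12 and 2 were the same with total counts in place of TMM and without the ribosomal RNA entries. At an unadjusted p under 0.05 in edgeR, 4 members passed for platform (Col5a3, Lamb2 and Sparc lower, Col18a1 higher), 11.8% against 6.95% of all tested genes. The median fitted platform log2 of members was -0.30, against -0.0019 over all tested genes. For the mean log2 ratio over the 2 media, taken outside the fit with zeros at 3 counts, the medians were -0.30 and -0.0033. In edgeR 0 members were higher on PUCL@CNT1 at the adjusted threshold, and the same held in limma-voom. DESeq2 also called 0 higher, but it gave no adjusted p to every member (none to Col5a3), so its 0 is not a test of them all.

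**Figure D2:**
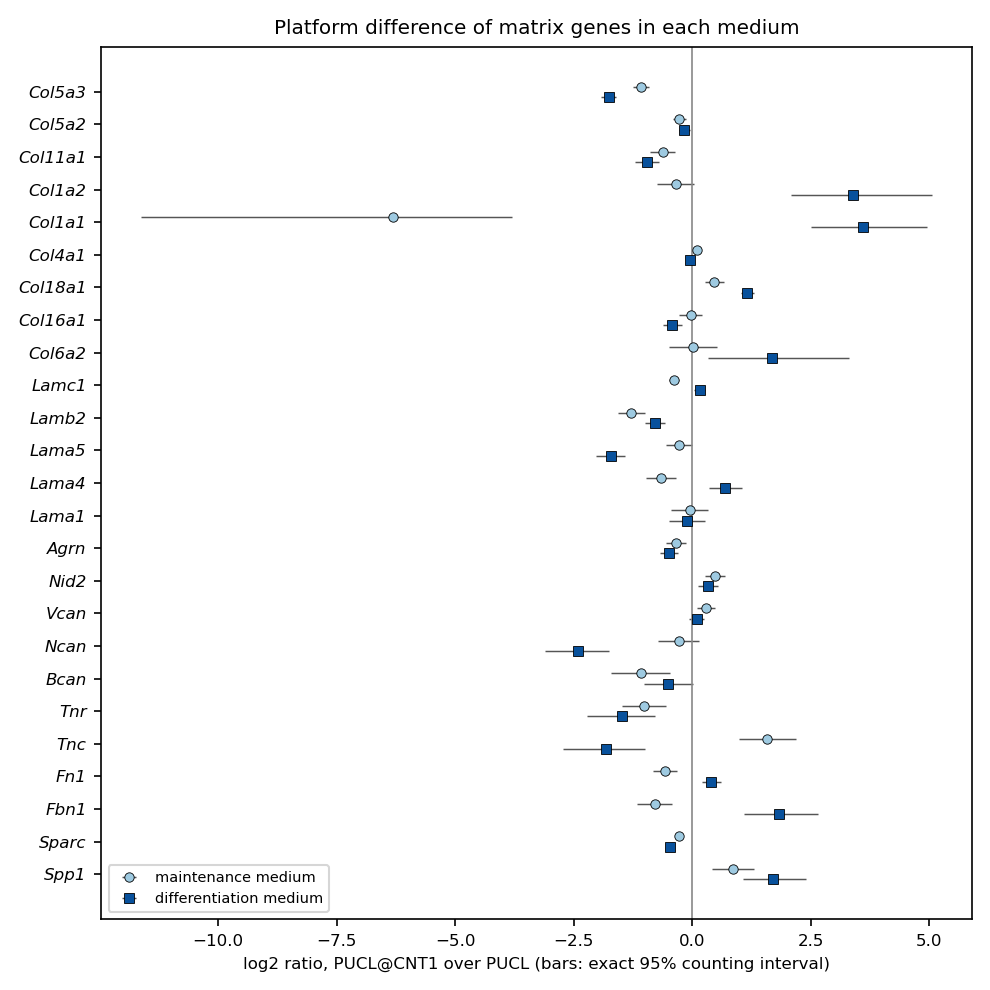
Log2 ratio of PUCL@CNT1 over PUCL (horizontal axis) in maintenance medium (light circles) and differentiation medium (dark squares) for members with 50 or more counts in a library and none at 0; bars are exact 95% intervals of counting error. Col5a3, Lamb2, Col11a1 and Tnr lie left of 0 in both media. Col1a1, Col1a2, Fbn1, Lama4, Lamc1 and Fn1 lie left of 0 in maintenance and right of it in differentiation medium. The maintenance bar of Col1a2 reaches past 0.

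Laminins are trimers of an alpha, a beta and a gamma chain, and cells bind them through the alpha chain. The tables held 8 chains and 7 were tested, with 0 past either edgeR threshold and 1 (Lamb2, for platform) at an unadjusted p under 0.05. Lamc1, the gamma chain of most laminins, stood at 1565, 1138, 1107 and 1273 counts, a fitted medium log2 of -0.20 (edgeR adjusted p 0.932).

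Lamb2, a beta chain of synaptic and vascular laminins, stood at 356, 139, 489 and 293 counts. PUCL exceeded PUCL@CNT1 2.43-fold in maintenance medium (interval 1.99 to 2.97) and 1.72-fold in differentiation medium (1.48 to 1.99), with a fitted log2 of -1.03 (SE 0.428, unadjusted p 0.0187, edgeR adjusted p 0.522). Among alpha chains, Lama1, found in embryonic basement membranes, had ratios from 0.925 to 1.05 in the 4 pairs. Lama5, of mature basement membranes, stood at 243, 190, 365 and 114 counts, with PUCL 3.29-fold above PUCL@CNT1 in differentiation medium (2.66 to 4.10) against 1.21-fold in maintenance medium. Lama4, a chain of vessels and nerves, went the other way, at 236, 142, 112 and 187 counts: PUCL was 1.57-fold above PUCL@CNT1 in maintenance medium, and PUCL@CNT1 1.62-fold above PUCL in differentiation medium. Lamb3, a beta chain of epithelial laminin, had 36, 26, 14 and 6 counts, and Lamc3 was listed at 0.

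Nidogen 2 (Nid2), which links laminin to type IV collagen, stood at 315, 417, 335 and 437 counts, so both PUCL@CNT1 libraries lay above both PUCL libraries (1.40-fold and 1.27-fold, edgeR adjusted p 1.00). Agrn, a heparan sulfate proteoglycan that binds laminin, showed the reverse order, at 409, 306, 544 and 400 counts (PUCL 1.27-fold and 1.40-fold higher, edgeR adjusted p 1.00). Neither passed for medium (edgeR adjusted p 1.00 and 0.886).

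Col16a1, a fibril-associated collagen, stood at 283, 262, 499 and 385 counts, above maintenance in both differentiation libraries (1.80-fold and 1.38-fold, edgeR adjusted p 0.597). Such an order of libraries, with both differentiation libraries above both maintenance libraries, was found in 7 members (20.6%): Col16a1, Col18a1, Col4a1, Col5a2, Fn1, Sparc and Vcan. The background was 19.4% of all tested genes. All 7 had a mean of 100 counts or more. The reverse order was found in 5 (14.7%), Col1a2, Col26a1, Col6a2, Fbn1 and Lamb3, against 19.3%, and all 5 had a mean under 100 counts.

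Fibronectin (Fn1), the adhesive glycoprotein that integrins assemble into fibrils, stood at 342, 218, 373 and 508 counts. It was lowest on PUCL@CNT1 in maintenance medium and highest there in differentiation medium, so the medium ratio was 1.11 on PUCL (interval 0.958 to 1.29) and 2.19 on PUCL@CNT1 (1.86 to 2.58). The fitted medium log2 was 0.64 (edgeR adjusted p 0.632).

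Low-count genes of the interstitial matrix did not share 1 pattern over the 4 libraries. In differentiation medium Col1a1, Col1a2, Col3a1, Fbn1 and Col6a2 were higher on PUCL@CNT1 than on PUCL (12.2, 10.5, 31.6, 3.58 and 3.24-fold). The ratio of Col6a2 rested on 20 against 6 counts (interval 1.26 to 9.86) and missed the size rule given below. Bgn (26, 19, 80 and 0 counts) and Col5a1 were lower on PUCL@CNT1 there. Col1a2, Fbn1 and Col6a2 were lowest on PUCL in differentiation medium, whereas Bgn and Col5a1 were highest there. Col1a1 was lowest on PUCL@CNT1 in maintenance medium, and Col3a1 had 0 to 3 counts outside PUCL@CNT1 in differentiation medium. Col1a2, a chain of type I collagen, stood at 133, 99, 5 and 54 counts, 26.1-fold lower after the switch on PUCL (interval 10.9 to 81.6) and 1.95-fold lower on PUCL@CNT1 (1.39 to 2.77). Fbn1, the microfibril glycoprotein, stood at 184, 101, 19 and 70 counts, 9.49-fold lower on PUCL (5.91 to 16.1) and 1.54-fold lower on PUCL@CNT1 (1.12 to 2.11). Col6a2, of the beaded filaments of type VI collagen, stood at 70, 67, 6 and 20 counts and was 11.4-fold lower on PUCL and 3.56-fold lower on PUCL@CNT1 (2.14 to 6.20). None of the 3 passed for medium in edgeR (adjusted p 0.411, 0.465 and 0.76).

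Col1a1, the partner chain of Col1a2 in type I collagen, fell with it after the switch on PUCL but not on PUCL@CNT1. It stood at 84, 1, 7 and 88 counts, so on PUCL it was 11.8-fold lower after the switch (interval 5.47 to 30.1) and on PUCL@CNT1 82.7-fold higher against a single count (14.5 to 3303). Col3a1, of type III collagen, was 31.6-fold higher on PUCL@CNT1 than on PUCL in differentiation medium (8.40 to 266, against 2 counts) and at least 20.4-fold higher after the switch on PUCL@CNT1. This bound sets a count of 0 at 3 counts per library and takes the other count as it stands. The edgeR medium effect missed the threshold for Col1a1 (adjusted p 0.991) and Col3a1 (0.953).

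Markers of mural cells, fibroblasts and meninges were read beside these genes, and their part in the result was not tested. Of 17 markers, 11 were tested, and the list summed to 1351, 986, 679 and 609 CPM, most of it from Acta2 (6920, 4664, 3223 and 2279 counts, edgeR adjusted p 1.96e-05) and Tagln (1621, 1031, 928 and 1342). Prrx1, a mesenchymal transcription factor, stood at 124, 154, 12 and 75 counts (edgeR adjusted p 0.344), and Kcnj8 at 25, 105, 0 and 6. Other markers of the list ran differently, such as Des at 111, 42, 113 and 138 counts, Cnn1 at 85, 128, 71 and 160, Crabp2 at 12, 3, 30 and 25 and Foxd1 at 3, 29, 0 and 0. Pdgfrb had 10, 0, 0 and 1 counts, and Rgs5, Abcc9, Tbx18, Aldh1a2 and Slc6a13 were at 0 in all 4 libraries.

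**Figure D3:**
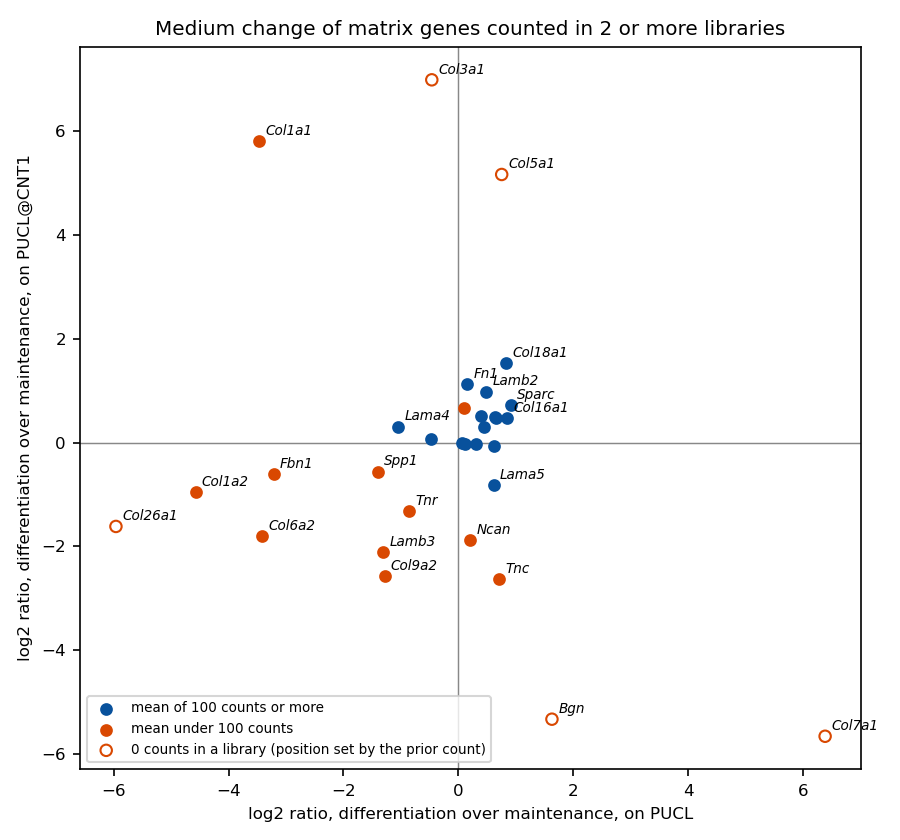
Log2 ratio of differentiation over maintenance medium on PUCL (horizontal axis) and on PUCL@CNT1 (vertical axis) for the 32 tested members with counts in at least 2 libraries; blue points have a mean of 100 counts or more, orange points less, and open points have a library at 0. Blue points lie near the origin, mostly in the upper right, while Col1a1 and Col3a1 stand at the top and Bgn and Col7a1 at the lower right.

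Lecticans are chondroitin sulfate proteoglycans that bind hyaluronan between neural cells, and 3 of 4 had counts. Vcan, the versican of immature matrix, stood at 408, 472, 633 and 697 counts (medium ratios 1.58 and 1.39, edgeR adjusted p 0.566). Ncan, the neurocan of young neural tissue, stood at 104, 81, 118 and 23 counts. Its PUCL@CNT1 library in differentiation medium lay 5.28-fold below PUCL (interval 3.35 to 8.64). Bcan, the brevican of glia, stood at 73, 33, 77 and 56 counts, and Acan was listed at 0.

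Tenascins are large glycoproteins of neural matrix, and their libraries spread widely. Tnc, made by radial glia and astrocytes, stood at 34, 96, 55 and 16 counts: PUCL@CNT1 was 2.98-fold above PUCL in maintenance medium (interval 2.00 to 4.55) and 3.54-fold below it in differentiation medium (2.00 to 6.61). Tnr, of oligodendrocytes and perineuronal nets, stood at 121, 57, 65 and 24 counts, lower on PUCL@CNT1 in both media and lower after the switch on both platforms (1.82-fold and 2.53-fold). Tnc and Tnr both missed the edgeR threshold for medium (adjusted p 0.953 and 0.907).

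Spp1, osteopontin, is a secreted phosphoprotein bound by integrins, and it stood at 71, 122, 26 and 88 counts, with both PUCL@CNT1 libraries above both PUCL libraries (1.81-fold and 3.29-fold, edgeR adjusted p 1.00). Bgn is the small proteoglycan biglycan, and its PUCL@CNT1 library in differentiation medium held 0 counts. Thbs1, Thbs2, Dcn and Lum were listed at 0.

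The sparsest members are given for completeness. Col9a2 had 38, 8, 15 and 1 counts, Col26a1 31, 1, 0 and 0, Col11a2 18, 0, 0 and 0, Col7a1 0, 24, 41 and 0, and Col8a1, which was counted but not tested, 0, 0, 0 and 9. A further 17 members were listed at 0 in all libraries, which allows up to 3 counts, or 0.451 to 0.480 CPM, in each. Besides Acan, Lamc3, Thbs1, Thbs2, Dcn and Lum these were Col2a1, Col4a3, Col4a4, Col6a4, Col9a1, Col13a1, Col14a1, Col15a1, Col17a1, Col23a1 and Col27a1. QuantSeq reads transcript 3′ ends, so a gene whose 3′ end lies outside the annotation used may be listed at 0.

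**Figure D4:**
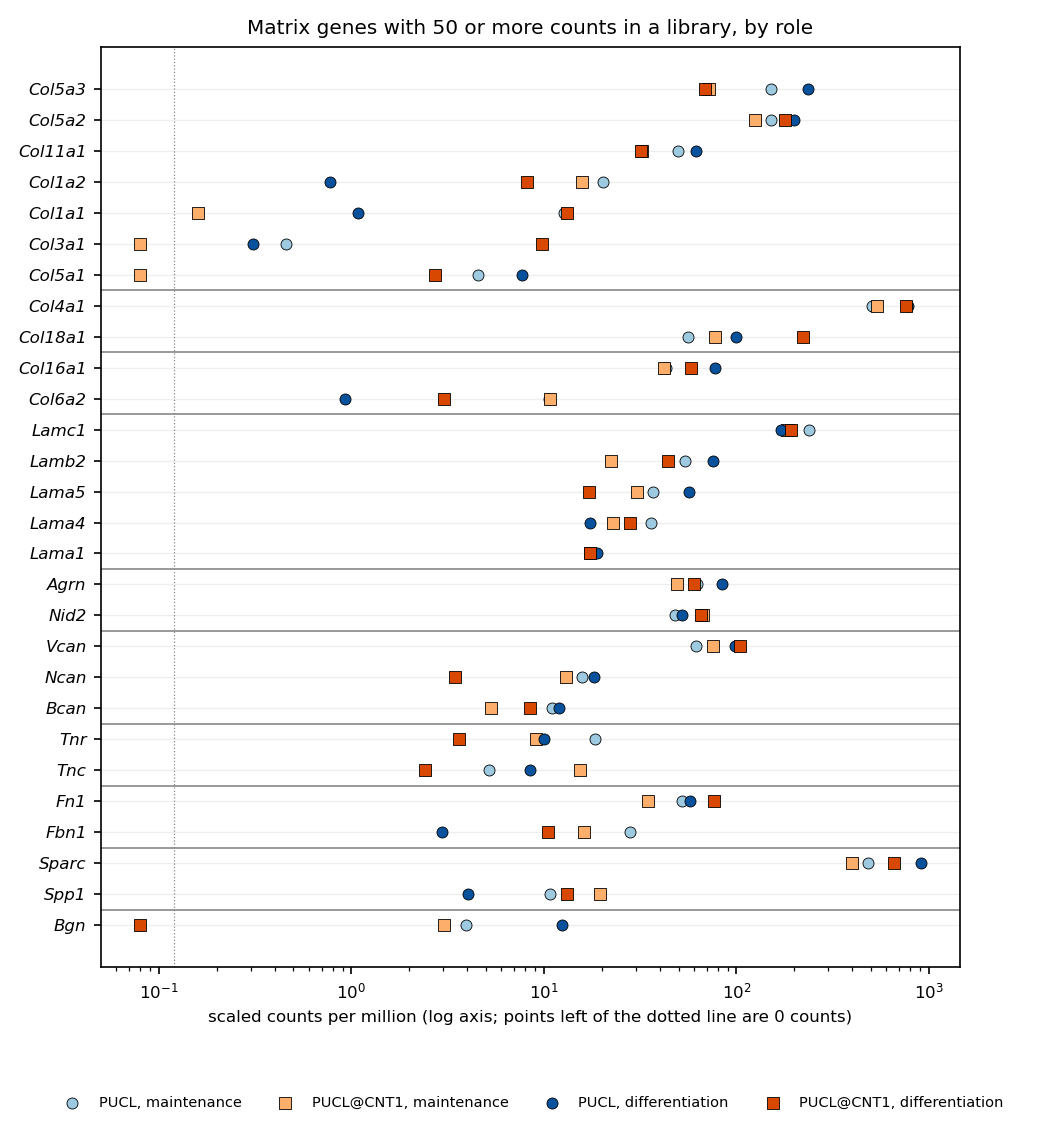
Scaled counts, as CPM (horizontal log axis), of the 28 members with 50 or more counts in a library, grouped by role between grey lines; circles are PUCL and squares PUCL@CNT1, light for maintenance and dark for differentiation medium, and points left of the dotted line are 0 counts. The 4 libraries lie close together for Col4a1, Lamc1, Nid2 and Lama1. Among members with no library at 0, they spread over more than 10-fold for Col1a1, Col1a2 and Col6a2. Col3a1, Col5a1 and Bgn each have a library at 0.

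How far 2 single libraries differed depended on the number of counts. A pair was called by size where the scaled ratio was at least 2-fold and its nearer bound lay beyond 1.5-fold. By this rule 10 members passed for medium on PUCL (2 higher and 8 lower, against 16.1% and 15.3% of all tested genes) and 13 on PUCL@CNT1 (6 and 7, against 16.5% and 14.5%). For medium, 1 member (Col6a2) was lower on both platforms, 0 were higher on both and 3 (Bgn, Col1a1 and Col7a1) were opposite, against 3.53%, 4.35% and 4.19% of all tested genes. For platform, 9 passed in maintenance medium (2 higher and 7 lower, against 12.2% and 13.9%) and 16 in differentiation medium (7 and 9, against 15.2% and 15.6%). In both media, 3 were lower on PUCL@CNT1 (Col5a1, Col5a3 and Col9a2), 0 were higher and 3 (Col1a1, Col7a1 and Tnc) were opposite, against 3.17%, 2.52% and 4.98%. Of 18 members with a mean under 100 counts, 50%, 61.1%, 38.9% and 72.2% passed in these 4 pairs. Of 16 members with a mean of 100 or more, 6.25%, 12.5%, 12.5% and 18.8% passed (Col18a1, Col5a3, Fn1, Lama4, Lama5 and Lamb2). Among all tested genes the share past the rule was 50.6%, 48.7%, 46.7% and 51.9% in the 4 pairs for a mean under 100 counts and 18%, 18.7%, 11.8% and 16.1% for a mean of 100 or more. How far the platform difference itself changed with medium passed the same sizes in 10 members, higher for Col1a1, Col1a2, Col3a1, Fbn1 and Lama4 and lower for Bgn, Col7a1, Lama5, Ncan and Tnc, against 15.4% and 14.1% of all tested genes. They were 8 of the 18 members with a mean under 100 counts, where 40.2% of all tested genes passed, and 2 of the 16 with a mean of 100 or more, where 22% did. This comparison uses up all 4 libraries and has no test.

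Genes that fold, modify and cross-link collagen form the list nearest to these members. Of 30, 27 were in the tables and 22 were tested. After the switch 2 rose and 1 fell in edgeR, against 1.8% and 1.02% of all tested genes. For platform 0 passed in edgeR (1 at an unadjusted p under 0.05), against 0.456% (6.95%) of all tested genes. The list's median fitted medium log2 was 0.48, against 0.0033 over all tested genes. Serpinh1 (HSP47), the chaperone that binds folded procollagen, rose, at 7063, 6940, 11676 and 12678 counts (fitted log2 0.77, SE 0.154, edgeR adjusted p 0.000622). P4ha1, the catalytic chain of collagen prolyl hydroxylase, fell, at 767, 562, 251 and 257 counts (fitted log2 -1.40, adjusted p 0.0151). Loxl1, a lysyl oxidase of elastic fibres, rose, at 0, 2, 144 and 83 counts (adjusted p 0.0363, and 0.25 in limma-voom). P4ha2, another hydroxylase chain, stood at 40, 0, 74 and 8 counts, lower on PUCL@CNT1 in both media by size.

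Matrix receptors other than integrins were read from a list of 20 genes, of which 14 were tested. In edgeR 1 fell after the switch and 1 was lower on PUCL@CNT1, against 1.02% and 0.247% of all tested genes. Sdc4, the syndecan of focal adhesions, fell after the switch, at 4943, 3544, 2019 and 3096 counts (fitted log2 -0.77, SE 0.203, edgeR adjusted p 0.0155), and Ptprz1, a receptor phosphatase that binds tenascins, was lower on PUCL@CNT1, at 3862, 2814, 4099 and 1628 counts (-0.87, adjusted p 0.0256). Sdc3, a neural syndecan, stood at 69, 60, 23 and 14 counts. The hyaluronan list had 4 of 10 genes tested and 0 past either edgeR threshold (1 at an unadjusted p under 0.05, for medium).

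Among 52 further matrix genes, 33 were tested. For medium 2 rose and 1 fell in edgeR, against 1.8% and 1.02% of all tested genes. For platform 1 was lower on PUCL@CNT1, against 0.247%. Igfbp7, a secreted protein of vascular matrix, rose, at 268, 522, 919 and 1275 counts (fitted log2 1.50, SE 0.312, edgeR adjusted p 0.00103), as did Ltbp1, which anchors latent TGF-beta in the matrix, at 269, 301, 929 and 672 (1.44, 0.00711). Fbn2, the fibrillin of embryonic tissue, fell, at 1687, 920, 870 and 473 counts (-0.99, 0.0266). Sparcl1, the astrocyte-rich relative of SPARC, was lower on PUCL@CNT1, at 1340, 1006, 2087 and 446 counts (-1.29, adjusted p 0.0115). By size on both platforms, Cyr61 was lower (268, 325, 80 and 133) and Gpc4 (44, 51, 103 and 123) and Prelp (11, 1, 67 and 25) higher in differentiation medium. Prelp was also lower on PUCL@CNT1 in both media by size.

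The calls among these list genes were not kept in every setting. With the platform term alone left out, Serpinh1 (edgeR adjusted p 0.0535), Sdc4 (0.125) and Fbn2 (0.114) missed the threshold. Each of the 7 medium calls was lost when the PUCL or the PUCL@CNT1 maintenance library was left out together with the platform term, with adjusted p-values from 0.0724 to 0.931. The fitted log2 moved little for some, from 0.70 to 0.81 for Serpinh1 and from -1.59 to -1.22 for P4ha1 over the other settings, and more for Fbn2, from -1.50 to -0.52. Of 11 other settings (10 for Loxl1), 8 kept the call of Igfbp7, 7 those of Serpinh1 and Ltbp1, 5 those of P4ha1, Sdc4 and Fbn2, and 4 that of Loxl1. For platform, 3 of 11 kept the call of Ptprz1 and 4 of 10 that of Sparcl1.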

How the data were processed

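RNA of 4 libraries (500 ng of total RNA each, Lexogen QuantSeq, per the labels' protocols) was compared. The authors deposited raw counts, 1 table per library with gene symbols. Per the submitters' processing notes, the authors used Bowtie2, bedtools and the rn6 genome build; versions, annotation, strand setting and filters are not given in the sources used here, so overlapping and antisense genes cannot be told apart. Rows of one symbol were summed. Members were matched by symbol over its whole length, which leaves out Col4a3bp, no collagen. Genes reaching 10 counts in any library entered edgeR 4.0.16 (TMM, glmQLFit and glmQLFTest, platform plus medium, 1 residual degree of freedom, 87.2 prior degrees of freedom). Each SE given with an edgeR fitted log2 is the absolute log2 divided by the square root of its F statistic. DESeq2 1.42.0, limma 3.58.1 (voom), other scalings, filters and left-out libraries were tried. Pair ratios used TMM-scaled counts, with 0.5 added to each count for log2 values. With 1 library per group, pairs have no p-value. Full values are given for members with 50 or more counts in a library or past a test, and list genes are named where they passed edgeR, or the size rule in both pairs of a contrast with 50 or more counts in a library. The members and lists were chosen with earlier results of these data known. The values of 1 tested member are not reported here.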

Additional observations from a re-analysis of the deposited data

Results flagged for a closer look

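In 4 members the 2 single-library ratios of one contrast passed the size rule in opposite directions. The difference was not tested, since each group is 1 library. After the switch, Col1a1 was 11.8-fold lower on PUCL and 82.7-fold higher on PUCL@CNT1. Within media, it was 79.6-fold lower on PUCL@CNT1 in maintenance medium (exact 95% interval 13.9 to 3180, against a single count) and 12.2-fold higher in differentiation medium (5.69 to 31.3). Col7a1, the anchoring fibril collagen, was, after the switch, at least 13.9-fold higher on PUCL, while on PUCL@CNT1 it was at least 8.51-fold lower. On PUCL@CNT1 it was at least 8.45-fold above PUCL in maintenance medium and at least 14.1-fold below it in differentiation medium. Bgn was 3.14-fold higher after the switch on PUCL (1.99 to 5.09), while on PUCL@CNT1 it was at least 6.74-fold lower. Tnc was 2.98-fold higher on PUCL@CNT1 in maintenance medium and 3.54-fold lower in differentiation medium. All 4 had a mean under 100 counts. Opposite calls were made for 4.19% of all tested genes for medium and 4.98% for platform.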

How the results depend on the processing

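Depth limits the sparse members: a count of 0 allows up to 3 counts, and with 1 library per group no setting adds replicates. No paired analysis was possible because each group is 1 library and the labels give no replicate numbers shared between groups. For medium, 2 members passed as reported, 1 where only genes averaging at least 100 counts were tested, 1 in DESeq2, 1 with the platform term left out, and 0 to 1 with a library also left out. Over all genes 296 passed, against 141, 170 and 176 under those settings, and 25 to 263 with a library left out. The share of rises was 189 of 296, and 139 of 260 with total counts. Of the other matrix genes 7 passed for medium, against 3, 3 and 4, and 0 to 6 with a library left out. For platform, 1 member passed, and 0 did at an average of at least 100 counts, in DESeq2, with the medium term left out, or with any of the 4 libraries also left out. Over all genes 48 passed for platform, against 27 with total counts, 25 with no filter, 0 at an average of at least 100 counts, 87 in limma-voom, 0 with the medium term left out, and 0 to 27 with a library left out. The lower side held 26 of 48, and 15 of 38 in DESeq2. Of the other matrix genes 2 passed for platform, against 0 with total counts, 1 with no filter, 0 at an average of at least 100 counts, 1 in DESeq2, 0 with the medium term left out, and 0 to 1 with a library left out. The size rule at 1.5-fold with the nearer bound beyond 1-fold gave 22 (medium on PUCL), 20 (medium on PUCL@CNT1) and 15 members (platform in maintenance medium). At 4-fold with the nearer bound beyond 2-fold it gave 7 (medium on PUCL@CNT1) and 8 (platform in differentiation medium). Fits without a library drop the other term and take a lone library to vary like the others. Fewer genes or libraries enter the filtered and left-out fits. The cause of the other differences was not tested. DESeq2 gave Col5a3 and Sparcl1 no adjusted p for platform, so its platform counts do not test every gene.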
